A study of Homo sapiens with 4 samples.

Results

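NF-kappaB is a family of dimeric transcription factors that drive inflammatory, survival and invasion genes, and its signalling is often raised in breast cancers of the basal type. The subunits are NFKB1, NFKB2, RELA, RELB and REL. Inhibitors of the IkappaB class, encoded by NFKBIA, NFKBIB and NFKBIE, hold the dimers in the cytoplasm until the kinase IKBKB marks them for destruction, and the ubiquitin-editing enzyme TNFAIP3 (A20) shuts the signal off again. The 10 genes were taken by symbol from a table of peaks of N6-methyladenosine (m6A), a base modification of mRNA that reader proteins such as YTHDF3, the subject of the study's title, bind. Of the 10 genes, 6 had at least 1 listed peak, with 21 of the 27678 peaks between them. Over all protein-coding gene symbols 36.1% had a listed peak.

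The series design and the growth protocol name the cells MDA-MB-231Br, a line derived from the MDA-MB-231 breast cancer line for its homing to brain. The cell line label says MDA-MB-231 and the extraction protocol speaks of embryos, which the sources used here do not reconcile. No treatment, genotype or time is given, and all libraries share the same cells. Poly(A) RNA was sonicated for the IP libraries, an m6A antibody pulled down fragments (IP), and 2 IP and 2 input libraries were sequenced. The table holds 1 IP and 1 input read count a peak, so no peak has a replicate value and no test across libraries could be made. The intervals of read ratios and of their comparisons are exact 95% intervals for counting error. Of 8 markers of mesenchymal and basal breast lines 6 had a listed peak, VIM with up to 13580 input reads in 1 peak, while SNAI2 and TGFBI were unlisted. Of 7 luminal markers, GATA3 and EPCAM had 1 peak each with 0 input reads and the others, ESR1 among them, were unlisted. All 4 pluripotency markers and all 4 immune markers were unlisted.

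The listed genes were the subunits NFKB1 with 3 peaks, REL with 2 and RELB with 8, the inhibitors NFKBIB with 3 and NFKBIE with 1, and TNFAIP3 with 4. NFKB2, the precursor subunit of the non-canonical pathway, RELA, the main activating subunit, NFKBIA, the fast-acting inhibitor that NF-kappaB itself induces, and the kinase gene IKBKB were unlisted. The table holds only windows that passed the authors' thresholds, with at least 5 IP reads in each, so an unlisted gene may be weakly expressed, unmethylated or below those thresholds, and which of these holds was not tested. By strand, 5 of 7 members on the plus strand and 1 of 3 on the minus strand were listed, where 42.3% of all protein-coding genes of the plus strand and 29.8% of those of the minus strand were listed. RELA and NFKBIA are the unlisted members on the minus strand.

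In 5 of the 6 listed genes, RELB being the exception, the peak with the highest ratio lay in exon 1 or, in NFKBIB, began there. Sites that stand for the highest windows are shown here. GGAC is the core of the sequence that the m6A methyltransferase prefers. Of the highest-ratio peak of each gene, the GGAC nearest to the midpoint is printed with its flanks, 5' to 3' on the transcribed strand, GGAC in capitals, from GENCODE release 29 transcripts on GRCh38. The highest peak of NFKB1 held no GGAC, and that of NFKBIB could not be placed on a transcript.
REL 5' UTR, chr2:60881722-60881741, plus strand: tggtcgggGGACtgggggcc
RELB coding exon 5, chr19:45022101-45022120, plus strand: gtgtggaaGGACtggcctca
NFKBIE coding exon 1, chr6:44265526-44265545, minus strand: cgctgggtGGACctggccag
TNFAIP3 5' UTR, chr6:137867447-137867466, plus strand: cttgaccaGGACttgggact
The base after GGAC was T in REL, RELB and TNFAIP3 and C in NFKBIE. A GGAC in a peak is a match of letters and not a mapped methylated base.

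Over the 21 peaks, IP reads exceeded input reads in 10 (47.6%, 25.7% to 70.2%), beside 40.5% of all listed peaks. A ratio of 4 or more was reached in 7 (33.3%, 14.6% to 57.0%), beside 17.2% of all listed peaks. The interval of each share holds the share of the whole table. These intervals treat the 21 peaks as independent draws, although 8 of them are of RELB and many overlap. They are therefore no test against the share of the table. The median read ratio of the members was 0.957, against 0.640 over all peaks. The median log2 ratio was -0.06 for the members and -0.63 for the table. Many of these peaks are not separate: of 14 neighbouring pairs on the same transcript 9 overlapped, so reads are counted more than once. With overlapping peaks merged to the one with the most reads, IP exceeded input in 8 of 12 peaks and the median log2 ratio was 1.90. In RELB this kept the last peak, with 159 IP and 68 input reads. It dropped all RELB peaks with fewer IP than input reads, which overlap in a chain with that one. No merged value of the whole table is given here, so the merged values have no background.

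**Figure D1:**
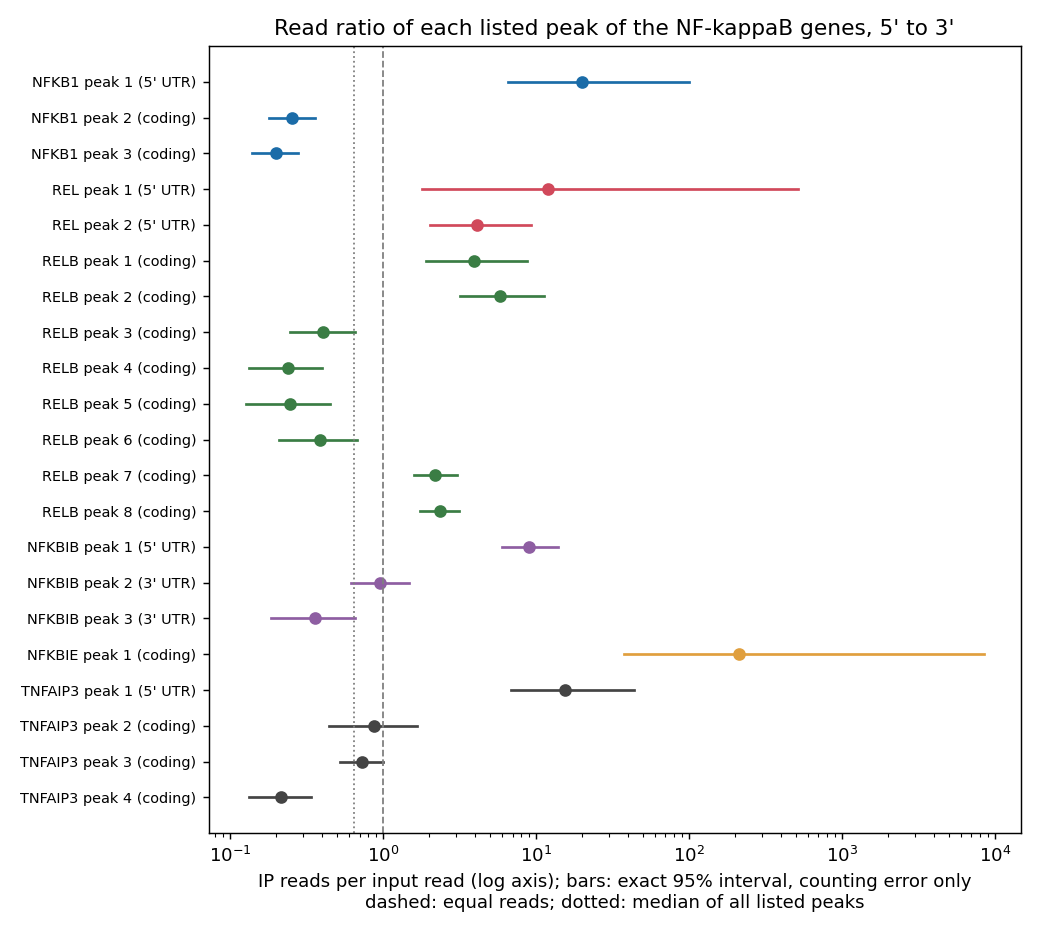
IP reads per input read (log axis) of each of the 21 listed peaks, ordered 5' to 3' within a gene, with exact 95% intervals for counting error; the region is the authors' own. All 5 peaks of the 5' UTR and the NFKBIE peak lie to the right of equal reads, and RELB alternates between high, low and high.

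By the authors' region column 5 of the 21 peaks lay in 5' UTRs, and in all 5 IP reads outnumbered input reads at least 4 to 1. Among all listed peaks of 5' UTRs, 70.1% had more IP than input reads and 40.5% reached 4 to 1. The other 16 member peaks had more IP than input reads in 5, beside 34.1% of coding and 3' UTR peaks in the table. The 5' UTR ratios ranged from 4.10 to 20. Every one of these peaks came from a gene on the plus strand.

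NFKB1 encodes the precursor that is cut to a DNA-binding subunit of the classical dimer. Its 5' UTR peak (chr4:102501329-102501608) began at the first base of the transcript ENST00000226574, lay in exon 1 of 24, and had 60 IP and 3 input reads (ratio 20, 6.52 to 99.7). Its coding peaks were IP-poor, a term used here for fewer IP than input reads, as IP-rich is for more. Equal reads are no baseline, since library totals are not given, and the authors list these windows as peaks all the same. The one across exons 7 and 8 (102576942 to 102579032) had 44 IP and 173 input reads (0.254, 0.178 to 0.356). The overlapping one across exons 8 and 9 (102578943 to 102580537) had 41 and 206 (0.199, 0.139 to 0.279). No peak was listed in the remaining 2177 nt of coding sequence, stop codon included, or in the 708 nt of 3' UTR.

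Read density divides each count by the length of its peak. In NFKB1 the IP density was 21.4 reads per 100 nt in the 5' UTR peak, 17.6 in the peak across exons 7 and 8 and 41.0 in the peak across exons 8 and 9. Input density was 1.07, 69.2 and 206 reads per 100 nt in the same order. The peak across exons 8 and 9 is 100 nt long and shares 90 nt with the other coding peak, yet has more input reads, 206 against 173. Counts thus did not scale with length there, and the gap in density between the coding peaks largely reflects their lengths. IP density differed less between the peaks than input density, which at the 5' end was a small fraction of that further in.

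REL encodes the c-Rel subunit, best known from lymphocytes, and both of its peaks lay around the start codon. The peak in exon 1 (chr2:60881551-60881850) had 12 IP reads and 1 input read (12, 1.78 to 513). The one that joins exons 1 and 2 (60881761 to 60891762) had 41 IP and 10 input reads (4.10, 2.02 to 9.18). They share 90 nt, both run from the 5' UTR into the coding sequence on ENST00000295025, and their intervals overlap. The IP density was 4 reads per 100 nt in the exon 1 peak and 24.1 in the other, and input density was 0.333 and 5.88. The 3' UTR of that transcript, 9075 nt long, had no listed peak.

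TNFAIP3 had a graded set of ratios from the 5' end inward. Its 5' UTR peak (chr6:137867188-137867537) began at the first base of ENST00000612899, lay in exon 1, and had 93 IP and 6 input reads (15.5, 6.86 to 43.3). The coding peak in exon 2 (137871248 to 137871457) had 19 and 22 (0.864, 0.442 to 1.67). The peak across exons 2 and 3 (137871428 to 137875029) had 70 and 97 (0.722, 0.523 to 0.992). The peak across exons 3 and 4 (137874940 to 137875701) had 24 and 111 (0.216, 0.133 to 0.338). The exon 2 peak and the one across exons 2 and 3 cannot be told apart at this depth, whereas the 5' UTR peak lay above all 3 and the last peak below all others by intervals that do not overlap. Along these 4 peaks IP density was 26.6, 9.05, 25.0 and 21.8 reads per 100 nt, and input density was 1.71, 10.5, 34.6 and 101. From the 5' UTR peak to the peak across exons 2 and 3, input density rose as the ratio fell, while IP density showed no such order. The peak across exons 3 and 4 is 110 nt long and shares 90 nt with the one before it, which is 280 nt long. Between these overlapping peaks IP reads fell from 70 to 24, while input reads were 97 and 111. Their input densities differ mostly through length, so density does not tell which count sets the last ratio apart. No peak was listed in the last 1873 nt of coding sequence or in the 1992 nt of 3' UTR.

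**Figure D2:**
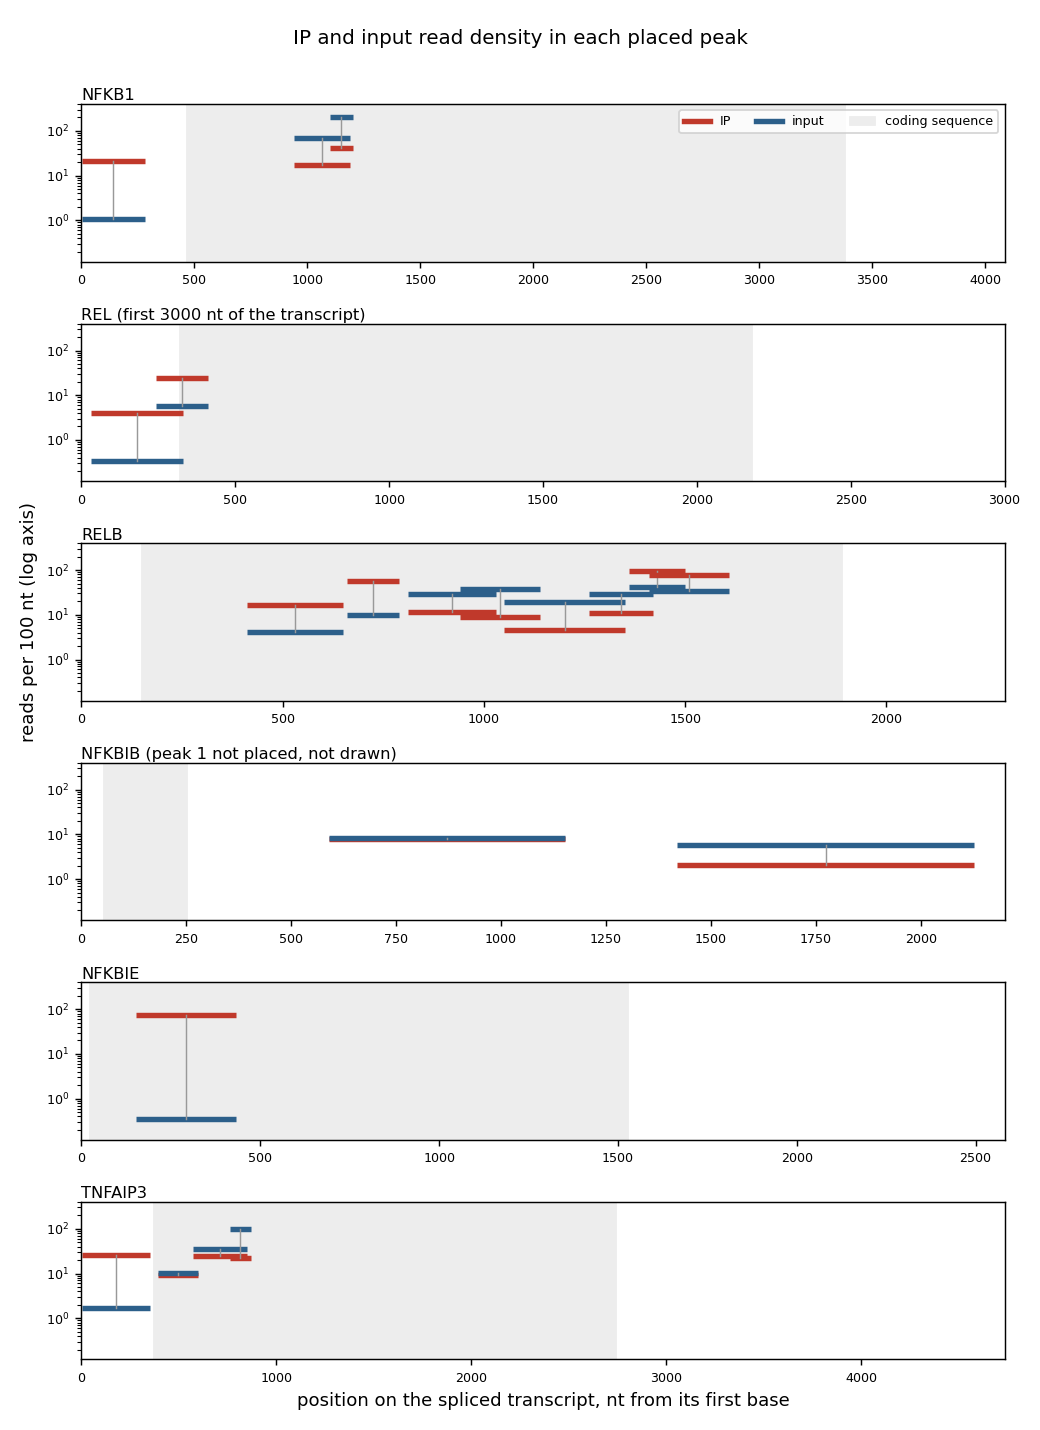
IP (red) and input (blue) reads per 100 nt (log axis) in each placed peak, drawn at its position on the spliced transcript; grey shading marks the coding sequence and thin lines join both values of a peak. In NFKB1 and TNFAIP3 input density is lowest at the 5' end, 1.07 and 1.71 reads per 100 nt, while in RELB both densities change along the coding sequence.

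Over the 4 placed 5' UTR peaks of the members, median input density was 1.39 reads per 100 nt, against 29.2 in the other 16 peaks, while median IP density was 22.8 and 16.9. The whole table showed the same order with a smaller gap in input, at 10.0 against 42.8 reads per 100 nt, and IP densities of 17.5 and 16. Base composition moved with it: median GC content was 71.5% in the placed 5' UTR peaks and 57.8% in the other member peaks, and 64.5% and 53.8% over the table. The part of GC content, of the sonication stated for the IP samples, and of alternative transcript starts in the thin input at these 5' ends was not tested.

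NFKBIB and NFKBIE encode the IkappaB inhibitors beta and epsilon. NFKBIE had a strongly IP-rich window in exon 1, and NFKBIB had one that began in exon 1 of an annotated transcript. The NFKBIB 5' UTR peak (chr19:38899980-38900243) had 241 IP and 27 input reads (8.93, 5.98 to 13.8). It began at the first base of ENST00000509705 and ran 32 bases past the end of that transcript's exon 1 as annotated. The first coding base there is base 54, so the window runs from the 5' UTR into coding sequence. The NFKBIB peak across exons 3 to 5 (38905508 to 38907846) had 44 and 46 reads (0.957, 0.618 to 1.48), and the last one (38908112 to 38908821) had 15 and 42 (0.357, 0.184 to 0.657). The authors call both 3' UTR, which holds on ENST00000509705, whose coding sequence is 198 nt long. On ENST00000572515 the peak across exons 3 to 5 covers transcript bases 673 to 1237 and the last base of the stop codon is 1098, so there it spans the end of the coding sequence. The last peak ends at base 1094 of ENST00000313582, before the end of the stop codon at base 1105. Its 3' end is thus coding there, while its start lies outside the exons of that transcript. The region of the NFKBIB peaks therefore depends on the isoform, and isoform levels were not analysed here.

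NFKBIE had the highest ratio of the family from a single window. Its peak in exon 1 (chr6:44265358-44265637, minus strand) had 212 IP reads and 1 input read (212, 37.6 to 8410), and its log2 ratio of 6.73 exceeded that of 99.9% of listed peaks. The lower bound of 37.6 already lies above the ratio of every other member peak. Input density was 0.357 and IP density 75.7 reads per 100 nt. It lay in coding sequence on ENST00000275015, from 126 nt after the first coding base, and had a GC content of 77.1%, the highest of the placed member peaks. With 1 input read its ratio rests on almost no input.

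RELB, the subunit of the non-canonical pathway, had no listed peak in exon 1. Each of the other 5 listed genes had a peak that lay or began there. RELB was IP-rich at both ends of a run of coding peaks. Its peaks covered bases 411 to 1610 of ENST00000221452 with gaps of 10 and 20 nt. The 5'-most peak in exon 4 (chr19:45012033-45012272) had 39 IP and 10 input reads (3.90, 1.91 to 8.76). The next, in exon 5 (45022059 to 45022188), had 75 and 13 (5.77, 3.18 to 11.3). Both are IP-rich, and their intervals overlap.

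The middle of RELB was IP-poor. From exon 5 to exon 7 (45022209 to 45025731) there were 26 IP and 64 input reads (0.406, 0.247 to 0.650). Across exons 7 and 8 (45025642 to 45028991) there were 18 and 76 (0.237, 0.133 to 0.4), and across exons 8 and 9 (45028902 to 45032742) 14 and 57 (0.246, 0.126 to 0.446). The peak across exons 9 and 10 (45032653 to 45034306) had 18 and 47 (0.383, 0.209 to 0.672). These 4 intervals overlap one another and lie wholly below those of the 4 IP-rich RELB peaks.

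Toward the 3' end of the RELB coding sequence the ratio was high again. The peak across exons 10 and 11 (45034247 to 45034524) had 131 IP and 60 input reads (2.18, 1.60 to 3.02). The last one, from exon 10 to exon 12 (45034297 to 45037510), had 159 and 68 (2.34, 1.75 to 3.15) and ended 280 nt before the end of the stop codon. Unlike at the 5' ends of NFKB1 and TNFAIP3, IP density here was high, at 93.6 and 79.5 reads per 100 nt against 4.67 to 11.8 in the middle peaks. Input density was 42.9 and 34.0, against 19 to 38.0 in the middle. The peak across exons 9 and 10 and the one across exons 10 and 11 share 60 nt, so the step from 0.383 to 2.18 falls around exon 10.

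A window from each of the IP-rich ends of RELB and the middle window with the lowest ratio are shown, since all are coding sequence of the same transcript and differ in ratio. They are coding sequence, 5' to 3' on the plus strand of GRCh38 across the spliced exons, from GENCODE release 29, with each GGAC in capitals.
RELB exon 5, ratio 5.77, chr19:45022059-45022188: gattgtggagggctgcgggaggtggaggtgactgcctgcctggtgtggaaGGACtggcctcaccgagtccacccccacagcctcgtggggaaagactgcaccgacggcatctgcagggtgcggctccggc
RELB exons 7 and 8, ratio 0.237, chr19:45025642-45028991: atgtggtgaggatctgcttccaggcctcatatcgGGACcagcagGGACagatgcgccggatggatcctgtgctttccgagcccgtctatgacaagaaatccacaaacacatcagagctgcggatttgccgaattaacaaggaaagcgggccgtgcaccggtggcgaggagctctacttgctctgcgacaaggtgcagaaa
RELB exons 10 and 11, ratio 2.18, chr19:45034247-45034524: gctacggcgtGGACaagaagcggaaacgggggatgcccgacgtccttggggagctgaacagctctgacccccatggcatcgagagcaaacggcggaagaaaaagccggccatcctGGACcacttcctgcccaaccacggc
The IP-rich window of exon 5 held 1 GGAC and the others 2 each, so the number of sites did not follow the ratio in these 3 windows. GC content was 67.7%, 55.5% and 62.9% in the same order.

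GGAC was searched on the transcribed strand of the 20 placed member peaks, and 15 (75.0%) held at least 1, beside 63.3% of all placed peaks. Per 100 nt there were 0.539 sites in member peaks and 0.545 over the table. The 9 placed peaks with more IP than input reads had 0.670 per 100 nt and the 11 others 0.451, and over the table these densities were 0.639 and 0.469. The NFKB1 5' UTR peak is 280 nt long and held none, although 77.0% of the 500 placed peaks of that length held one. The NFKBIE peak has the same length and held 3. The RELB peak in exon 4, 240 nt long, also held none, where 69.9% of peaks of its length did. Unlisted members do not lack the motif: the annotated transcript of NFKB2 held 29 GGAC in 3101 nt (9.35 per kb), RELA 19 (7.04), NFKBIA 10 (6.42) and IKBKB 16 (4.06), and the listed members ranged from 2.22 per kb in REL to 7.75 in NFKBIE.

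**Figure D3:**
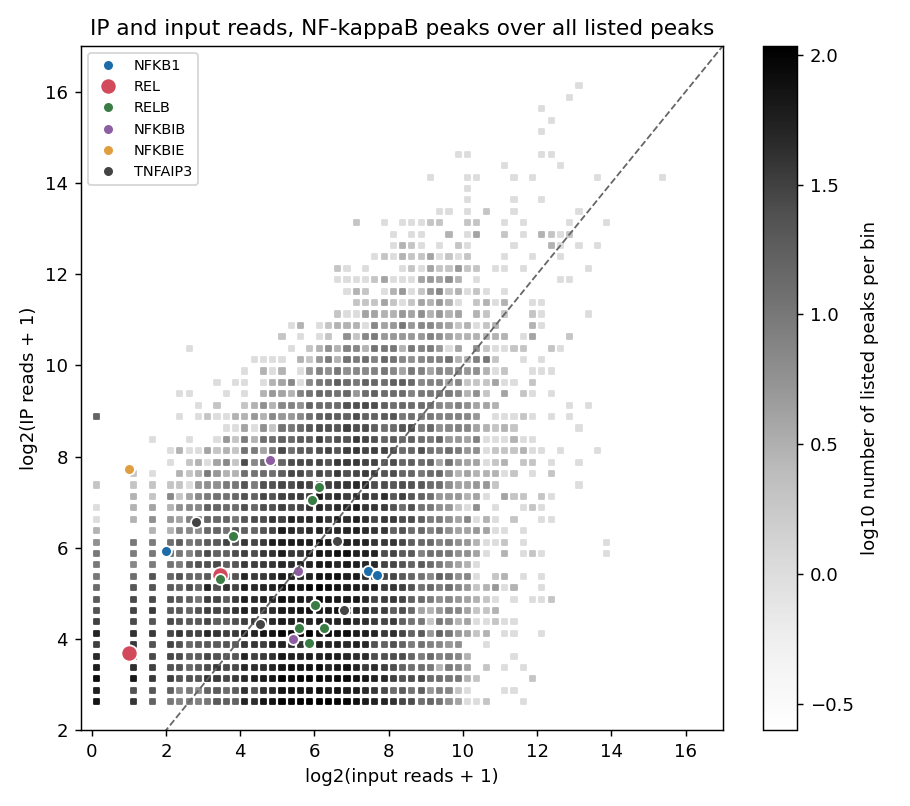
IP against input reads of each peak, both as log2 of reads plus 1; grey squares count all 27678 listed peaks and coloured points are the members, with equal reads on the dashed line. NFKBIE, with 212 IP reads and 1 input read, lies at the upper left edge of the table, and the IP-poor peaks of RELB and NFKB1 lie among the bulk; the REL peak across exons 1 and 2 and the RELB peak in exon 4 nearly coincide.

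To compare peaks within a gene, the 5'-most listed peak was set against the 3'-most one, called its 5' end and 3' end here. The gene's own level cancels only where both peaks lie on the same isoforms, and isoform levels were not analysed here. These peaks need not lie at the ends of the transcript. The 3'-most peak covered bases 1101 to 1200 of 4085 in NFKB1 and 761 to 870 of 4735 in TNFAIP3. The 5'-most peak of RELB began at base 411. In NFKB1 the read ratio was 98.4 times higher at the 5' end (29.9 to 514; Fisher's exact test, two-sided, adjusted p = 7.40e-32). In TNFAIP3 it was 69.6 times higher (26.7 to 218; Fisher's exact test, adjusted p = 3.08e-33). In NFKBIB it was 24.5 times higher (11.6 to 54.5; Fisher's exact test, adjusted p = 1.99e-21). In RELB it was 1.67 times higher with an interval that includes no difference (0.761 to 3.96; Fisher's exact test, adjusted p = 0.280). Neither REL, whose peaks overlap, nor NFKBIE, with 1 peak, was tested.

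The 5'-most peak was thus called higher in 3 of 4 tested members, and a higher 5'-most peak was also the usual call in the table. Of 4516 genes with such a pair, 53.5% were called higher in the 5'-most peak and 15.5% in the 3'-most peak, at an adjusted p under 0.05. The median difference was 1.81 on the log2 scale, where NFKB1 stood at 6.23, TNFAIP3 at 5.91, NFKBIB at 4.54 and RELB at 0.65. NFKB1 exceeded 90.7% of these genes, TNFAIP3 88.7%, NFKBIB 77.7% and RELB 37.5%. These tests compare reads of pooled libraries and say nothing of the spread between cultures.

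The same difference was split into its IP and its input part, as log2 of reads per nt at the 5'-most minus the 3'-most peak. In NFKB1 IP density differed by -0.95 and input density by -7.18. In TNFAIP3 the values were 0.24 and -5.67, and in RELB -2.26 and -2.91. Over the 4407 genes with both peaks placed the medians were 0.28 for IP and -1.18 for input. By these densities the 5' to 3' difference in ratio of NFKB1 and TNFAIP3 lay in the input reads. Their 3'-most peaks are short, at 100 and 110 nt, and the densities depend on that length. As plain counts, 5'-most and then 3'-most, input reads were 3 and 206 in NFKB1 and 6 and 111 in TNFAIP3. IP reads were 60 and 41 in NFKB1 and 93 and 24 in TNFAIP3.

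**Figure D4:**
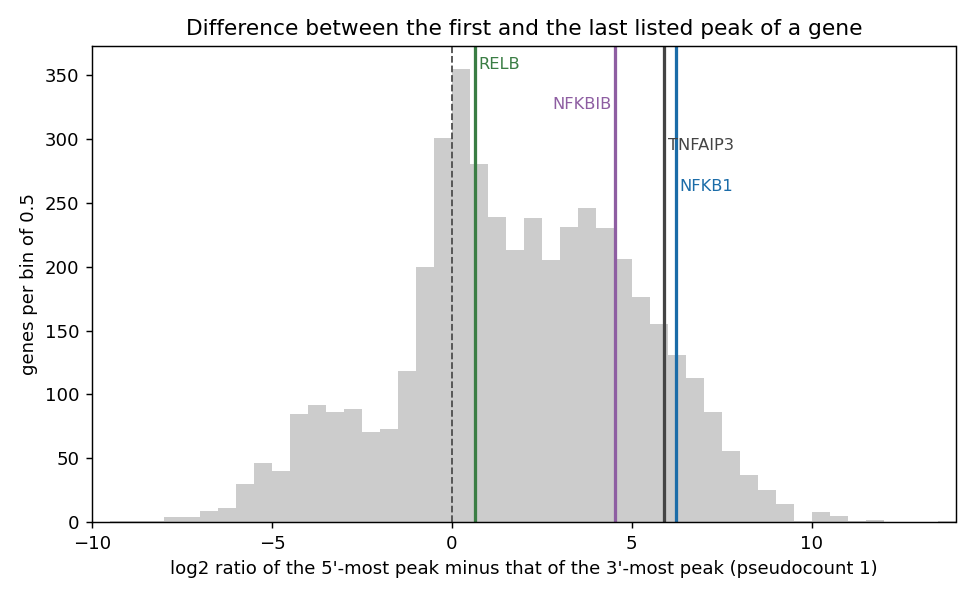
Number of genes (bins of 0.5) by the log2 read ratio of the 5'-most peak minus that of the 3'-most peak, pseudocount 1, over 4516 genes; coloured lines mark the 4 members with such a pair. RELB lies at 0.65, below the median of 1.81, and NFKBIB, TNFAIP3 and NFKB1 lie at 4.54 to 6.23.

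Around these 10 genes, 41 of 75 other genes of the pathway had a listed peak, beside 36.1% of protein-coding gene symbols. Of these 41, 31 had a peak with more IP than input reads and 19 a peak at a ratio of 4 or more. Over all 7267 listed gene symbols these shares were 73.8% and 43.5%, so neither count sets the listed pathway genes apart. Receptors and adaptors were listed in 10 of 19 cases, with a median peak ratio of 0.371. RIPK1, the kinase at the TNF receptor, had 61 IP reads and 1 input read in the 5' UTR (61.0, 10.5 to 2450). The TNF receptor TNFRSF1B had 33 and 2 (16.5, 4.22 to 142) and the adaptor TRAF1 206 and 19 (10.8, 6.77 to 18.4). The adaptor ligases TRAF3 and TRAF6 reached 4.74 (4.06 to 5.56) and 4.32 (2.78 to 6.97). Lowest were the main TNF receptor TNFRSF1A, at 0.601 (0.457 to 0.787), and the death receptor TNFRSF10B, at 0.0192 (0.00619 to 0.0455).

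Upstream kinases and ubiquitin enzymes were listed in 13 of 21 cases. Their median peak ratio was 1.35, the highest of the 4 groups. It is a median over 46 peaks, of which RBCK1 alone had 13, and so leans on genes with many peaks. Beside the unlisted IKBKB, the other catalytic subunit of its complex, CHUK, was also unlisted, whereas the regulatory subunit IKBKG had 367 IP and 22 input reads (16.7, 10.9 to 26.9). IKBKG has a near-identical pseudogene, so its reads are uncertain. RBCK1 and RNF31 of the linear ubiquitin ligase reached 10.9 (6.19 to 21.0) and 3.65 (2.69 to 5.03), the kinase MAP3K7 (TAK1) 5.40 (3.75 to 7.98) and the IKK-related kinase IKBKE 5.31 (2.91 to 10.5). Lowest were MAP3K14 (NIK), the kinase that starts the non-canonical pathway, at 0.151 (0.0916 to 0.237), and the adaptor TAB2 at 0.183 (0.106 to 0.3), although 2 TAB2 peaks under the minimum of 20 reads reached a ratio of 4.

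Other inhibitors were listed in 10 of 13 cases, with a median peak ratio of 0.664. The linear ubiquitin protease OTULIN reached 15.1 in the 5' UTR, from 106 IP and 7 input reads (7.10 to 38.6), and TNIP2, a partner of TNFAIP3, had 51 and 4 (12.8, 4.69 to 48.6). NKIRAS1 reached 6.25 (2.16 to 24.7), the nuclear IkappaB NFKBID 3 (1.14 to 9.23) and COMMD1 2.26 (1.66 to 3.11). Lowest were NKRF at 0.559 (0.301 to 1.01) and the ubiquitin ligase ITCH at 0.0312 (0.0141 to 0.0602).

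Known targets of NF-kappaB were listed in 8 of 22 cases, close to the 36.1% of all protein-coding gene symbols. All 8 had at least 1 peak with more IP than input reads, as did 73.8% of all listed gene symbols. Over all 36 target peaks IP reads exceeded input reads in 15, beside 40.5% of all listed peaks. A ratio of 4 or more was reached in 4, beside 17.2%. The median peak ratio of the targets was 0.637, against 0.640 over all peaks, so the ratios below are those of each gene's highest peak only. PLAU, the urokinase protease, reached 11.2 (5.68 to 25.2) in its 5' UTR. The chemokine CXCL1 had 905 IP and 100 input reads (9.05, 7.35 to 11.2) and the chemokine CXCL8 551 and 171 (3.22, 2.71 to 3.85). CXCL1 has close paralogs, and the authors' counting could have split such reads. The apoptosis inhibitor CFLAR reached 3.83 (2.52 to 5.98), the cytokine LIF 2.45 (1.77 to 3.44), the adhesion molecule ICAM1 2.36 (1.90 to 2.94) and IL1A 2.18 (1.03 to 4.93). The classical targets IL6, CCL2, TNF and SOD2 were unlisted.

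**Figure D5:**
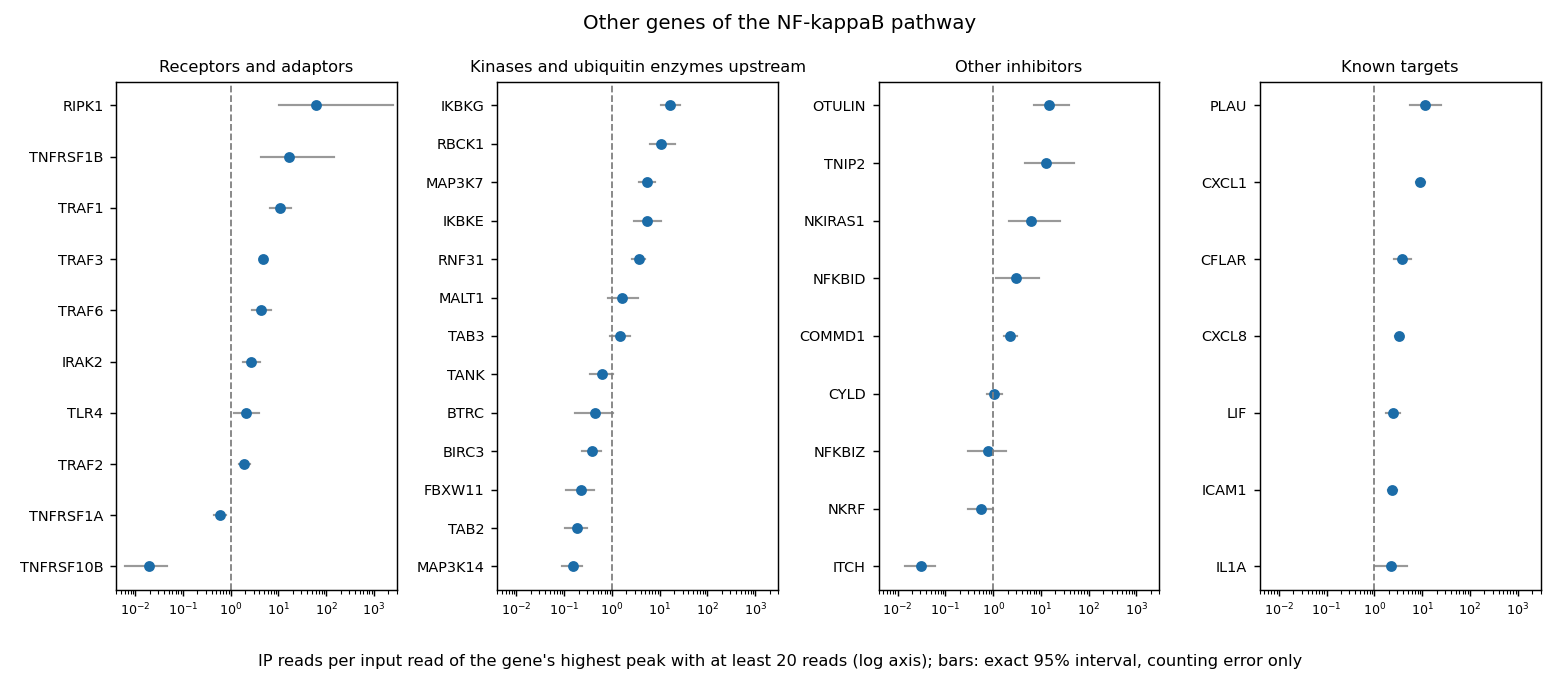
IP reads per input read (log axis) of the highest peak with at least 20 reads in each listed gene of 4 pathway groups, with exact 95% intervals for counting error and equal reads dashed. Ratios run from 0.0192 in TNFRSF10B to 61.0 in RIPK1. All 7 targets drawn lie above equal reads in this highest peak, whereas 15 of all 36 listed target peaks do.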

How the data were processed

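The authors deposited 1 peak table of m6A-seq in MDA-MB-231Br cells. Per the file headers it gives read counts in IP and in input for each peak, with no replicate number, so the deposited counts were taken as pooled over the 2 libraries of each kind. It also gives the authors' p-value and false discovery rate and the authors' window score, all described only. HISAT2, HOMER and the builds GRCh38 and hg38 stand in the submitters' processing notes with no version or role. The peak caller and its thresholds are not given in the sources used here.

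Of 27855 entries, 177 repeats were dropped. Peaks were placed on the longest coding GENCODE release 29 transcript (GRCh38) of their gene that held both ends at a spliced length in multiples of 10 nt, or else on the longest that held both ends. This placed 98.5%, of which 98.7% had such a length. Log2 ratios used a pseudocount of 1. Read ratios used none and carry exact Clopper-Pearson intervals at the 95% level. They cover counting error only, since PCR reads are not independent molecules. Library totals are not given in the sources used here, so equal reads are no baseline and ratios are comparable only inside this table. Fisher's exact test (scipy 1.17.1), run in all 4516 genes of the table whose outermost peaks did not overlap, was adjusted by Benjamini-Hochberg over those genes and tested on simulated data. The genes, gene lists and tests were chosen with earlier results of these data known. Every member was named, with all its peaks. Of each group of pathway genes, up to 5 with the highest and 2 with the lowest ratio were named, from peaks with at least 20 reads. The design set a limit on peaks for members with more than 6, and RELB, with 8, was nonetheless given in full. Its longer sequences were chosen after its values were seen. A gene of the pathway lists is not reported here and is left out of their counts.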

Additional observations from a re-analysis of the deposited data

How the results depend on the processing

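The counts and medians over the members were recomputed with overlapping peaks merged, with at least 20 reads a peak, with the authors' false discovery rate at most 0.01, with other pseudocounts and with the authors' score. All 19 alternative values stayed within the interval of the main value or within 1.5 times the main count. These bounds are wide: for 21 peaks the interval of the median log2 ratio ran from -1.43 to 2.44. The filters on reads and on false discovery rate each kept 20 of the 21 peaks. Staying within the bounds therefore says little. The median log2 read ratio ran from -0.13 with at least 20 reads to 1.90 with overlapping peaks merged, and it was 1.57 with 1 peak a gene. The merged values leave out, among others, the IP-poor middle peaks of RELB. The median log2 of the authors' score was 2.06, and it counts among the 19 although it is on another scale. The share with more IP than input reads ran from 45.0% to 66.7%. In both alternatives run for these counts 6 members were listed and 3 were called higher in the 5'-most peak. Pathway genes listed numbered 39 in each. No paired analysis was possible because the table gives 1 IP and 1 input count a peak with no replicate number, and leaving out a replicate could not be run for the same reason. Ratios with 1 to 10 input reads, as in NFKBIE, REL and NFKB1, are limited by input depth.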

Other observations

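The authors' window score did not follow the reads among these peaks. In the authors' deposited table NFKBIE, with 212 IP reads and 1 input read, had the lowest score of the 21 peaks, 1.01, and the NFKB1 5' UTR peak the highest, 8.98. In the authors' deposited table the false discovery rate was 9.84e-60 for that NFKB1 peak and 7.13e-42 for the IP-poor coding peak of TNFAIP3 across exons 3 and 4, whose score was 5.49. In some member peaks the deposited false discovery rate lay below the authors' p-value, so it is not a plain adjustment of that p-value. The REL peak in exon 1 and the RELB peak in exon 4 are examples. How the score and the rate were made is not given in the sources used here.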
